A study of Homo sapiens with 6 samples.

Results

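The expressed small nucleolar RNAs (snoRNAs) of MDA-MB-231 cells were taken as the rows whose symbol begins with SNORA or SNORD and a digit and whose level was 1 TPM or more in no fewer than 3 of 6 libraries. TPM is a transcript's share of its library, divided by transcript length and scaled to a fixed total. Of 61280 rows, 528 carried such a symbol and 20 reached the level. The 20 comprised 18 of the 214 H/ACA (SNORA) rows and 2 of the 314 C/D (SNORD) rows. They were thus chosen by the TPM values that are described here, irrespective of group. MDA-MB-231 is a human triple-negative breast cancer cell line. RNA was sequenced from 3 irradiated samples (X-rays, 20 Gy, then 24 h of culture) and from 3 untreated control samples of the same line. The labels give neither separate origins for the replicates nor a culture time for the controls. The p-values therefore reflect the spread between these 6 samples alone, which may be technical, and culture time cannot be told apart from irradiation.

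snoRNAs are short nucleolar RNAs that pair with other RNAs and guide enzymes to single nucleotides. The C/D class carries the methyltransferase fibrillarin and directs ribose methylation, and the H/ACA class carries the pseudouridine synthase dyskerin and directs conversion of uridine to pseudouridine. A few of them, such as U3 (SNORD3) and U17 (SNORA73), act in cleavage of the ribosomal RNA precursor instead. Most human snoRNAs lie in introns of a host gene and are trimmed out of the spliced intron, whereas U3 genes have their own promoters.

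An H/ACA RNA folds into 2 hairpins joined by a hinge with the letters ANANNA (the H box) and ends shortly after the letters ACA. The sequences below, in GENCODE 29 on hg38 and written 5′ to 3′, are those of the 4 H/ACA RNAs that passed the test across all genes and of the pair SNORA73B and SNORA73A, which lie in 1 host and resemble each other. Capitals mark an ANANNA match near the middle, if any, and the ACA at the end.
SNORA12 (chr10:100237156-100237302, minus strand): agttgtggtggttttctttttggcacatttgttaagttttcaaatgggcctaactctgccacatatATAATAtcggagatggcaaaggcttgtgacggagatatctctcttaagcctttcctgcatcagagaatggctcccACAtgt
SNORA23 (chr11:9428773-9428954, plus strand): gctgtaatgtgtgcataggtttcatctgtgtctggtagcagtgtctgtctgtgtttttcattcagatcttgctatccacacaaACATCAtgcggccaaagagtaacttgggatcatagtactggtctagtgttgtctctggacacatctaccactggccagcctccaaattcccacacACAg
SNORA57 (chr11:62665422-62665570, plus strand): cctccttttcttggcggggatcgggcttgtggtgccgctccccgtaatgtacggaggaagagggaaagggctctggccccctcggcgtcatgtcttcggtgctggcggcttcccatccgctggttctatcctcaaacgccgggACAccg
SNORA31B (chr13:45336314-45336447, minus strand): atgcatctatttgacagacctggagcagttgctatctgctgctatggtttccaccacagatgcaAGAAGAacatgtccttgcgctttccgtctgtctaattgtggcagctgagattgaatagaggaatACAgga
SNORA73B (chr1:28508559-28508762, plus strand): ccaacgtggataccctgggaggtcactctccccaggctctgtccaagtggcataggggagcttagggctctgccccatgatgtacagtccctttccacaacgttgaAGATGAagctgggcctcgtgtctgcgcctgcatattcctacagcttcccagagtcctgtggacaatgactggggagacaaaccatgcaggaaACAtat
SNORA73A (chr1:28507366-28507571, plus strand): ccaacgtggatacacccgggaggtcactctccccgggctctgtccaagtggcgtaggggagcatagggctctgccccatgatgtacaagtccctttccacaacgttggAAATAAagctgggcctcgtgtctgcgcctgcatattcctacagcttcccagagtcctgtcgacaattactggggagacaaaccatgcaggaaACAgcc
An ACA that ended within 6 bases of the 3′ end was present in 17 of the 18 H/ACA members. Of all H/ACA rows with a sequence, 82.2% had it, and of C/D rows 6.07%. ANANNA with its centre between 35% and 65% of the length was present in 15 of 18 members, in 90.1% of all H/ACA rows and in 50.5% of C/D rows. SNORA71B, annotated at 272 bases, was the member without a terminal ACA. Both searches read the RNA strand only, and a match is a description of letters. SNORA73B and SNORA73A shared 192 of 206 aligned positions (93.2%). The closest snoRNA row to SNORA12 shared 51.6% of aligned positions, to SNORA23 48.7%, to SNORA57 52.1% and to SNORA31B 56.0%, so no near-identical annotated copy of these 4 was found among snoRNA rows.

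Being listed above 0 went with annotated length, although most rows of each length range were at 0 in all 6 libraries. Among H/ACA rows the median was 139.5 bases in members and 133 bases in rows at 0 in all 6 libraries. None of the 278 C/D rows and none of the 12 H/ACA rows annotated under 100 bases was listed above 0 in any library. Of H/ACA rows with at least 120 but under 140 bases, 25.3% were above 0 in at least 1 library and 5.70% were members. Of those with 140 bases or more, 35.1% were above 0 and 24.3% were members. Median annotated length was 81 bases in the C/D class and 133 bases in the H/ACA class. The 2 C/D members, SNORD3A and SNORD3B-2, are annotated as transcripts of 699 and 791 bases, which is longer than any H/ACA member (128 to 272 bases). How much of the difference between the classes comes from length was not tested.

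**Figure D1:**
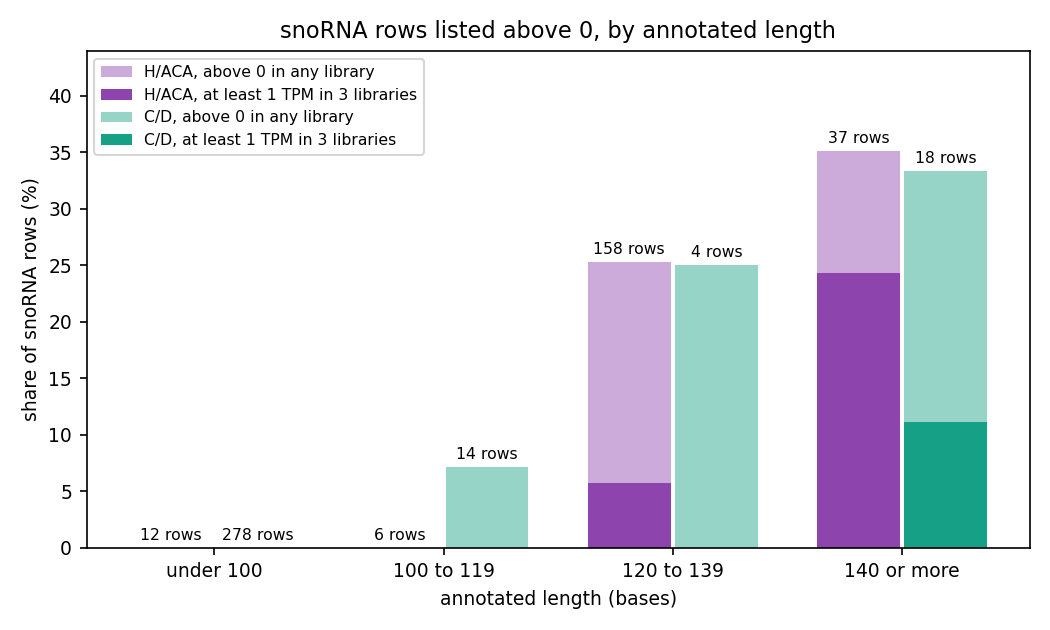
Share of snoRNA rows (y axis, percent) in 4 bins of annotated length in bases (x axis), for H/ACA on the left and C/D on the right of each bin; pale bars are rows above 0 in any library, solid bars rows at 1 TPM or more in at least 3 libraries, and the number above a bar is the number of rows. The bins under 100 bases are at 0 for both classes, and the 2 solid C/D rows fall in the longest bin.

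The 20 members held between 311 and 358 summed TPM in irradiated libraries and between 263 and 340 in controls. The irradiated mean was 327.5 ± 26.8 TPM and the control mean 302.3 ± 38.6 TPM (SD, n = 3 each), and the ranges overlapped. The difference of 25.2 TPM was 5.48 TPM without control replicate 1, 9.82 TPM without irradiated replicate 1 and 43.99 TPM without control replicate 2. The members' sum was at most 0.0358% of a library. Without SNORA12 and SNORD3B-2, the most abundant member of each class, the irradiated sum was 20.0 TPM lower than the control sum, since the difference was then -20.0 TPM against 25.2 TPM with them. H/ACA members held 323 ± 27.3 TPM in irradiated cells and 296 ± 39.2 TPM in controls. C/D members held 4.66 ± 0.507 TPM in irradiated cells and 6.27 ± 0.703 TPM in controls, and here the groups did not overlap. That sum holds 2 rows, and only SNORD3B-2 was lower (mean 2.10 TPM in irradiated cells and 3.78 TPM in controls). SNORD3A had means of 2.56 and 2.48 TPM. In a bulk sample, fewer cells with an RNA and less of it per cell cannot be told apart.

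Only 5 of the 20 were listed above 0 in all 6 libraries. These were SNORA12, SNORA23, SNORA73B, SNORD3A and SNORD3B-2. The other 15, all H/ACA, were listed at 0 in 1 to 3 libraries, which made 17 of 60 irradiated and 15 of 60 control values 0. An exact 0 in a TPM table can be a failed estimate. The spliceosomal U4 genes, which every cell uses, were also listed at 0 in most libraries. RNU4-2 stood at 26.9, 16.2 and 0 TPM in irradiated libraries and at 0 in all 3 controls. The spliceosomal row RNU5A-1 went the other way, with 0.86 to 35.99 TPM across the 6 libraries. RNU2-2P stood at 0, 7.94 and 0 TPM in irradiated libraries and at 3.21, 0 and 9.84 TPM in controls. Because zeros are uncertain, single values are given below for a member with a 0, and no group means in TPM. Its limma log2 change and the sums over members still include the zeros. The 24 H/ACA rows above 0 in a single library had 4.46 to 44.05 TPM there, with a median of 17.6 TPM, so a listed value could stand far above 0. Some rows shared a value, of like length or not. SNORA36A and SNORA20, both 132 bases and 55.0% identical, were both listed at 19.7 TPM in control replicate 3. SNORA73B and SNORA50C, of 204 and 133 bases and 43.9% identical, were both listed at 3.52 TPM in irradiated replicate 2.

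**Figure D2:**
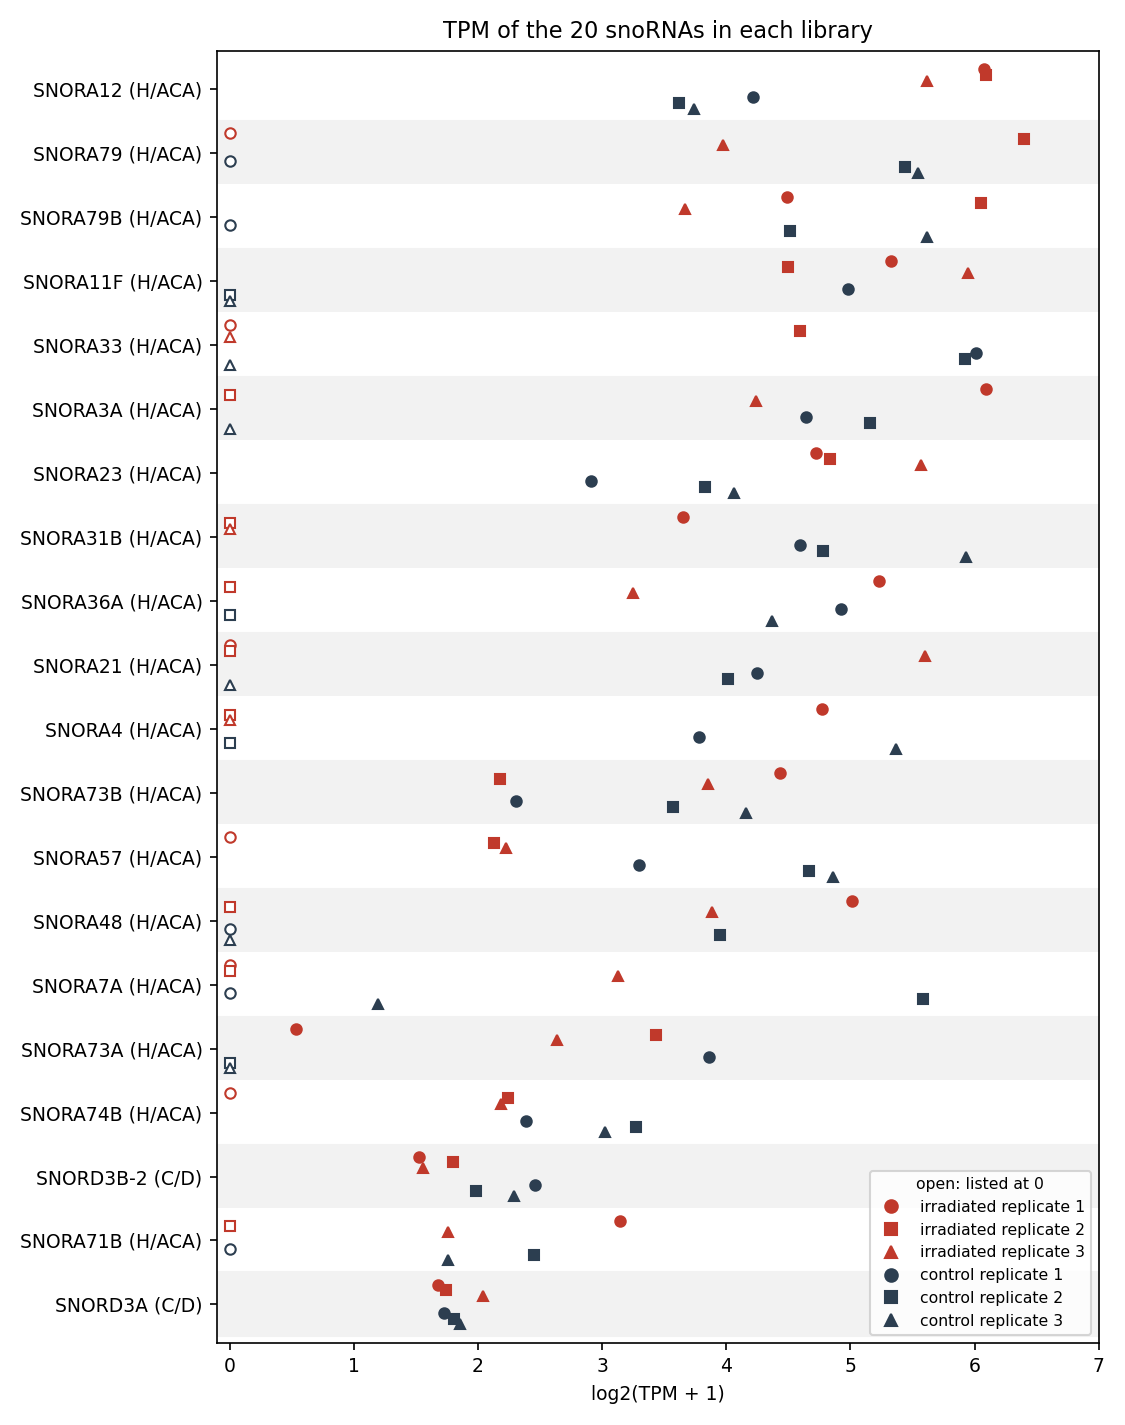
log2(TPM + 1) (x axis) of each of the 20 snoRNAs (rows, ordered by mean TPM) in the irradiated libraries (red, upper) and the control libraries (dark, lower), with 1 symbol per replicate and open symbols for values listed at 0. SNORA12 and SNORA23 are the rows where every irradiated symbol lies to the right of every control symbol, and most other H/ACA rows have symbols at 0 in both groups.

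SNORA12 was higher after irradiation, with the lowest adjusted p of the 20. It had 66.5, 67.3 and 48.1 TPM in irradiated replicates 1, 2 and 3, against 17.6, 11.3 and 12.4 TPM in control replicates 1, 2 and 3. All irradiated values were above all control values. The means were 60.7 ± 10.9 and 13.7 ± 3.34 TPM (SD, n = 3 each), a ratio of 4.41, with a log2 change of 2.07 ± 0.18 SE on log2(TPM + 1) (limma across 14621 genes, adjusted p = 0.00310). SNORA12 lies within an intron of CWF19L1, and no annotated exon of that gene overlaps it. CWF19L1 itself had 29.6 ± 0.802 TPM in irradiated cells and 28.1 ± 0.293 TPM in controls (log2 change 0.07 ± 0.05, adjusted p = 0.432).

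The ratio of SNORA12 to CWF19L1 was 2.26, 2.33 and 1.58 in irradiated libraries and 0.626, 0.405 and 0.436 in controls. The ratio differed by 2.08 on the log2 scale, with an exact two-sided permutation p of 0.1, the smallest that 3 against 3 can give. With no overlap in SNORA12 and little change in its host, this p was fixed beforehand and is no separate support. SNORA12 passed in each of the 17 other fits, with an adjusted p of up to 0.0310, reached when only rows under 300 bases set the expected spread.

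SNORA23, which guides pseudouridylation of 28S ribosomal RNA, was also higher. It had 25.4, 27.6 and 46.5 TPM in irradiated replicates 1, 2 and 3, against 6.54, 13.2 and 15.7 TPM in control replicates 1, 2 and 3. The groups did not overlap. The means were 33.1 ± 11.6 and 11.8 ± 4.72 TPM (SD, n = 3 each; log2 change 1.44 ± 0.33 SE, limma, adjusted p = 0.0360). Its host IPO7, a nuclear import receptor, had 79.0 ± 10.5 TPM in irradiated cells and 86.2 ± 3.37 TPM in controls (log2 change -0.13 ± 0.10, adjusted p = 0.412). The ratio of SNORA23 to IPO7 was 0.301, 0.412 and 0.542 in irradiated libraries and 0.0747, 0.149 and 0.190 in controls, without overlap. The log2 difference was 1.66 (exact two-sided permutation p = 0.1). This p, too, followed from the values of SNORA23 and is no separate support. The SNORA23 call was lost in 9 of 17 other fits, among them those without control replicate 1 (adjusted p = 0.0740) and without irradiated replicate 1 (adjusted p = 0.0587), and in the fit on short rows (adjusted p = 0.263).

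SNORA57 and SNORA31B were lower. SNORA57 had 0, 3.38 and 3.67 TPM in irradiated replicates 1, 2 and 3, against 8.83, 24.4 and 28.1 TPM in control replicates 1, 2 and 3. Each irradiated value was below each control value (log2 change -2.82 ± 0.65 SE, limma, adjusted p = 0.0376). SNORA31B had 11.6, 0 and 0 TPM in irradiated libraries, against 23.2, 26.5 and 59.9 TPM in controls, again without overlap (log2 change -3.89 ± 0.95 SE, limma, adjusted p = 0.0442). Both changes include values listed at 0 and depend on the pseudocount: with 0.1 in place of 1 they were -4.07 and -6.09, and neither passed. Without irradiated replicate 1, the library where SNORA57 is listed at 0, its change was -2.10 and still passed (limma, adjusted p = 0.0496). In that fit both remaining irradiated values of SNORA31B were 0, and its change was -5.10 (limma, adjusted p = 0.00922). The SNORA57 call was lost in 10 of 16 other fits that tested it and that of SNORA31B in 11 of 16, both in the fit on short rows (adjusted p = 0.263 for each).

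Both also overlap annotated exons on the same strand. SNORA57 lies in a processed transcript of CSKMT, a citrate synthase methyltransferase gene, and opposite to LBHD1. CSKMT had 9.25 ± 1.80 TPM in irradiated cells and 13.6 ± 3.29 TPM in controls (log2 change -0.50 ± 0.19, limma, adjusted p = 0.133). SNORA31B lies in an exon of a protein-coding transcript of TPT1, the gene of translationally controlled tumour protein, at 2497 ± 91.1 TPM in irradiated cells and 2573 ± 104 TPM in controls (log2 change -0.04 ± 0.05, limma, adjusted p = 0.578). Whether counting used strand is not stated, and host or opposite-strand reads cannot be told apart from snoRNA reads.

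These 4 calls, 2 higher and 2 lower, were 20.0% of the 20 members, against 10.6% of all 14621 genes tested. Of the 145 other tested rows under 300 bases, 3 were called higher and 6 lower (6.21%). At an unadjusted p under 0.05 there were 7 of 20 members, against 28.0% of all genes tested. Groups did not overlap for 6 members, against 34.9% of all genes: 2 were higher (20.4% of all genes) and 4 lower (14.5% of all genes). The median log2 change was -0.09 over the members and 0.03 over all genes tested, with 10 members above 0 and 10 below. By class, 4 of 18 H/ACA RNAs were called and 0 of 2 C/D RNAs by limma, with 1 C/D RNA at an unadjusted p under 0.05. No member was at 1 TPM or more in the 3 libraries of 1 group and in no other library. SNORA31B, SNORA57 and SNORA74B reached that level in 3 control libraries and in 1, 2 and 2 irradiated libraries. SNORA11F and SNORA79B reached it in 3 irradiated libraries and in 1 and 2 control libraries. Each of these met the rule through its higher group and not through the other. For them a difference between groups is not independent of the rule.

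The C/D pair was the steadiest. SNORD3A and SNORD3B-2 encode U3, the RNA of the small-subunit processome that is needed for early cleavage of the ribosomal RNA precursor. Their annotated transcripts have 699 and 791 bases, against 218 and 217 bases for the SNORD3D rows, which were listed at 0. Whether the values of the longer rows reflect U3 RNA itself was not tested. SNORD3A had 2.21, 2.35 and 3.11 TPM in irradiated libraries, against 2.31, 2.51 and 2.63 TPM in controls. The groups overlapped (log2 change 0.02 ± 0.14 SE, limma, adjusted p = 0.935). SNORD3B-2 had 1.88, 2.48 and 1.95 TPM in irradiated libraries, against 4.49, 2.96 and 3.90 TPM in controls. It was lower in each irradiated library than in each control but missed the threshold (means 2.10 ± 0.328 and 3.78 ± 0.772 TPM, SD, n = 3 each; log2 change -0.62 ± 0.16 SE, limma, adjusted p = 0.0532). It passed in 4 of 15 other fits that tested it, among them median-ratio scaling and quantile normalization.

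U3 copies are close to each other. SNORD3A and SNORD3B-2 were identical over the first 77 bases and shared 85.9% of all aligned positions. SNORD3B-2 and SNORD3B-1 shared 92.4%, and SNORD3B-1, SNORD3C and both SNORD3D rows were listed at 0 in all 6 libraries. How the authors' counting divided reads between these copies is not given in the sources used here, so the single values of the 2 C/D members are uncertain.

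SNORA73B and SNORA73A, the 2 human U17 RNAs of 18S ribosomal RNA processing, lie in the RCC1 and SNHG3 locus. SNORA73B had 20.6, 3.52 and 13.4 TPM in irradiated replicates 1, 2 and 3, against 3.95, 10.9 and 16.9 TPM in control replicates 1, 2 and 3. The groups overlapped over most of their range (log2 change 0.14 ± 0.64 SE, limma, adjusted p = 0.910). SNORA73A had 0.45, 9.82 and 5.21 TPM in irradiated replicates 1, 2 and 3, against 13.5, 0 and 0 TPM in control replicates 1, 2 and 3. The RNA that was high in a library was not the same in each: SNORA73B led in irradiated replicates 1 and 3 and in control replicates 2 and 3, and SNORA73A in the other 2. With 93.2% identity between them, reads may have been divided differently in each library, which was not tested.

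Their hosts moved with far less spread. RCC1, the exchange factor of the Ran GTPase, had 58.2, 57.3 and 58.4 TPM in irradiated libraries, against 74.8, 74.2 and 73.8 TPM in controls, and fell (log2 change -0.35 ± 0.04 SE, limma, adjusted p = 0.00640). The non-coding host SNHG3 fell to 39.3 ± 1.08 TPM in irradiated cells, against 65.1 ± 3.68 TPM in controls (log2 change -0.71 ± 0.06 SE, limma, adjusted p = 0.00259). The ratio of SNORA73B to RCC1 ranged from 0.0614 to 0.354 in irradiated libraries and from 0.0528 to 0.229 in controls (exact two-sided permutation p = 0.5).

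SNORA74B (U19), whose host is the proton pump subunit gene ATP6V0E1, had 0, 3.73 and 3.55 TPM in irradiated replicates 1, 2 and 3, against 4.22, 8.67 and 7.14 TPM in control replicates 1, 2 and 3. The groups did not overlap, but the difference did not pass (log2 change -1.42 ± 0.59 SE, limma, adjusted p = 0.166), and without irradiated replicate 1, where it is listed at 0, the change was -0.68. ATP6V0E1 rose to 277 ± 13.3 TPM in irradiated cells, against 227 ± 1.95 TPM in controls (log2 change 0.28 ± 0.04 SE, limma, adjusted p = 0.0132), a call lost in 5 of 16 other fits, median-ratio scaling among them (adjusted p = 0.0644). SNORA11F had 39.1, 21.6 and 60.7 TPM in irradiated replicates 1, 2 and 3, against 30.5, 0 and 0 TPM in control replicates 1, 2 and 3. One control lay inside the irradiated range (log2 change 3.60 ± 1.26 SE, limma, adjusted p = 0.114), and without that library, control replicate 1, the change was 5.26 with an adjusted p of 0.0100. SNORA11F has no annotated host on its strand, lies opposite to NUDT13, and shared 93.0% of aligned positions with SNORA11E, which was listed at 0 in every library.

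The remaining 10 H/ACA members did not pass, and each had overlapping groups. SNORA79, in an intron of the transcription factor IIA gene GTF2A1, had 0, 83.4 and 14.7 TPM in irradiated replicates 1, 2 and 3, against 0, 42.3 and 45.8 TPM in control replicates 1, 2 and 3. SNORA33, in the ribosomal protein gene RPS12, had 0, 23.2 and 0 TPM in irradiated libraries, against 63.4, 59.6 and 0 TPM in controls. SNORA3A, in RPL27A, had 67.3, 0 and 17.9 TPM in irradiated libraries, against 24.0, 34.6 and 0 TPM in controls. In all 3, values listed at 0 and values of 14.7 TPM or more stood side by side within a group, and these had the highest residual SDs of the 20 (3.20, 3.07 and 2.99 on the log2 scale).

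SNORA21, which guides pseudouridylation of 28S ribosomal RNA and lies in RPL23, had 0, 0 and 47.5 TPM in irradiated replicates 1, 2 and 3, against 18.0, 15.2 and 0 TPM in control replicates 1, 2 and 3. SNORA36A lies in DKC1, the gene of dyskerin itself, and had 36.5, 0 and 8.53 TPM in irradiated libraries, against 29.4, 0 and 19.7 TPM in controls. SNORA36C, which shared 97.0% of aligned positions with it, was listed at the same 8.53 TPM in irradiated replicate 3 and at 0 elsewhere. Whether the 2 rows shared reads in that library was not tested. SNORA79B had 21.5, 65.4 and 11.7 TPM in irradiated libraries, against 0, 21.9 and 48.2 TPM in controls. SNORA4, in EIF4A2, had 26.3, 0 and 0 TPM in irradiated libraries, against 12.7, 0 and 40.2 TPM in controls. SNORA48, in EIF4A1, had 31.2, 0 and 13.8 TPM in irradiated libraries, against 0, 14.4 and 0 TPM in controls. Each of these 3 had values in both groups that lay inside the range of the other group. SNORA7A, in RPL32, had 0, 0 and 7.76 TPM in irradiated libraries, against 0, 46.9 and 1.29 TPM in controls. SNORA71B had 7.83, 0 and 2.38 TPM in irradiated libraries, against 0, 4.48 and 2.38 TPM in controls. Among these 5, adjusted p ran from 0.509 to 0.890 (limma).

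The nearest snoRNA rows on either side, at 1.29 and 0.45 TPM, left a gap around the level. Just inside it, by the third highest value, were SNORA7A (1.29 TPM), SNORA71B (2.38 TPM) and SNORD3A (2.51 TPM). Just outside were SNORA59B (0.45 TPM on the same measure) and SNORA26 and SNORA63 (0). SNORA26 was left out with 104 TPM in irradiated replicate 1 and 129 TPM in control replicate 1 and 0 elsewhere. In all, 41 snoRNA rows were above 0 in some library without reaching the level.

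The spread between replicates was far larger for H/ACA members than for other genes. Their median residual SD within groups was 2.19 on the log2 scale, with a range of 0.293 to 3.20. The 2 C/D members had 0.143 and 0.199. Other tested rows under 300 bases had a median of 0.781 (n = 145), and rows of 300 bases or more at the same mean levels 0.143 (n = 8155). The 3 H/ACA members above 0 everywhere had a median of 0.537 and the 15 with a 0 a median of 2.44. Across the 20 members, Pearson correlations of log2(TPM + 1) between libraries ran from -0.24 to 0.34 within groups and from -0.27 to 0.22 between groups. Over all 14621 tested genes they ran from 0.980 to 0.988 within groups and from 0.976 to 0.982 between them. These correlations are across genes, which are not independent replicates, and are a description.

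**Figure D3:**
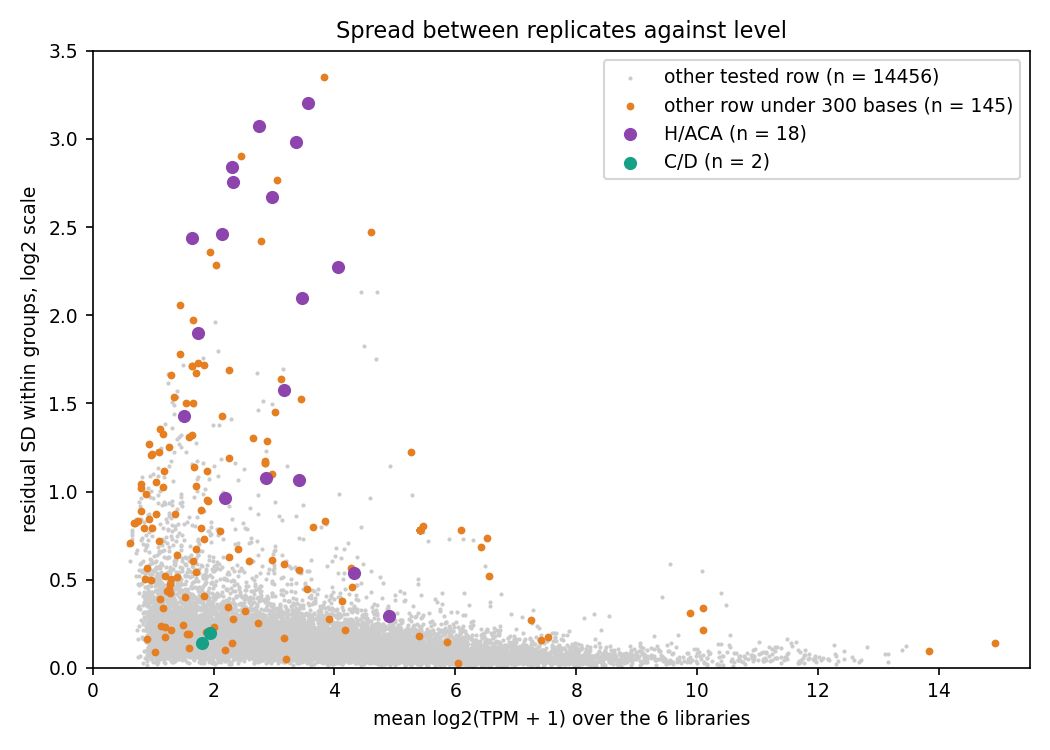
Residual SD within groups on the log2 scale (y axis) against the mean log2(TPM + 1) over the 6 libraries (x axis) for all 14621 tested rows; purple points are the 18 H/ACA members, green the 2 C/D members, orange the 145 other rows under 300 bases and grey the rest. H/ACA points lie between 0.293 and 3.20, mostly above the grey cloud at their level, and the 2 C/D points lie within it.

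In all, 17 members had a host gene on the same strand, and with the host of highest mean TPM taken as the main one these were 16 genes, among them the ribosomal protein genes RPL23, RPL27A, RPL32 and RPS12 and the helicase genes EIF4A1 and EIF4A2. Of the 17, 8 lay wholly in introns and 9 overlapped an exon of some annotated transcript, often a retained intron. SNHG3, described above, and SENP3-EIF4A1, which also spans SNORA48, are further genes on the same strand and are not counted among the 16. The 16 main hosts had log2 changes between -0.50 and 0.31, where the members ranged from -3.89 to 3.60. Of these 16, 4 fell and 1 rose, against 4.07% and 6.53% of all genes tested called lower and higher. The falls were RCC1, DKC1 (77.9 ± 5.24 TPM in irradiated cells and 91.7 ± 1.18 TPM in controls, limma, adjusted p = 0.0416), EIF4A1 (1280.0 ± 4.70 and 1464 ± 19.9 TPM, adjusted p = 0.0145) and SNHG17 (35.2 ± 1.99 and 46.7 ± 2.08 TPM, adjusted p = 0.0140). The EIF4A1 and SNHG17 calls were lost in 6 and 2 of 16 other fits. None of the 4 called snoRNAs lay in a called host. A difference between snoRNA and host was put to the exact permutation given above only for SNORA12, SNORA23 and SNORA73B. For SNORA12 and SNORA23 the result was fixed by their own values.

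**Figure D4:**
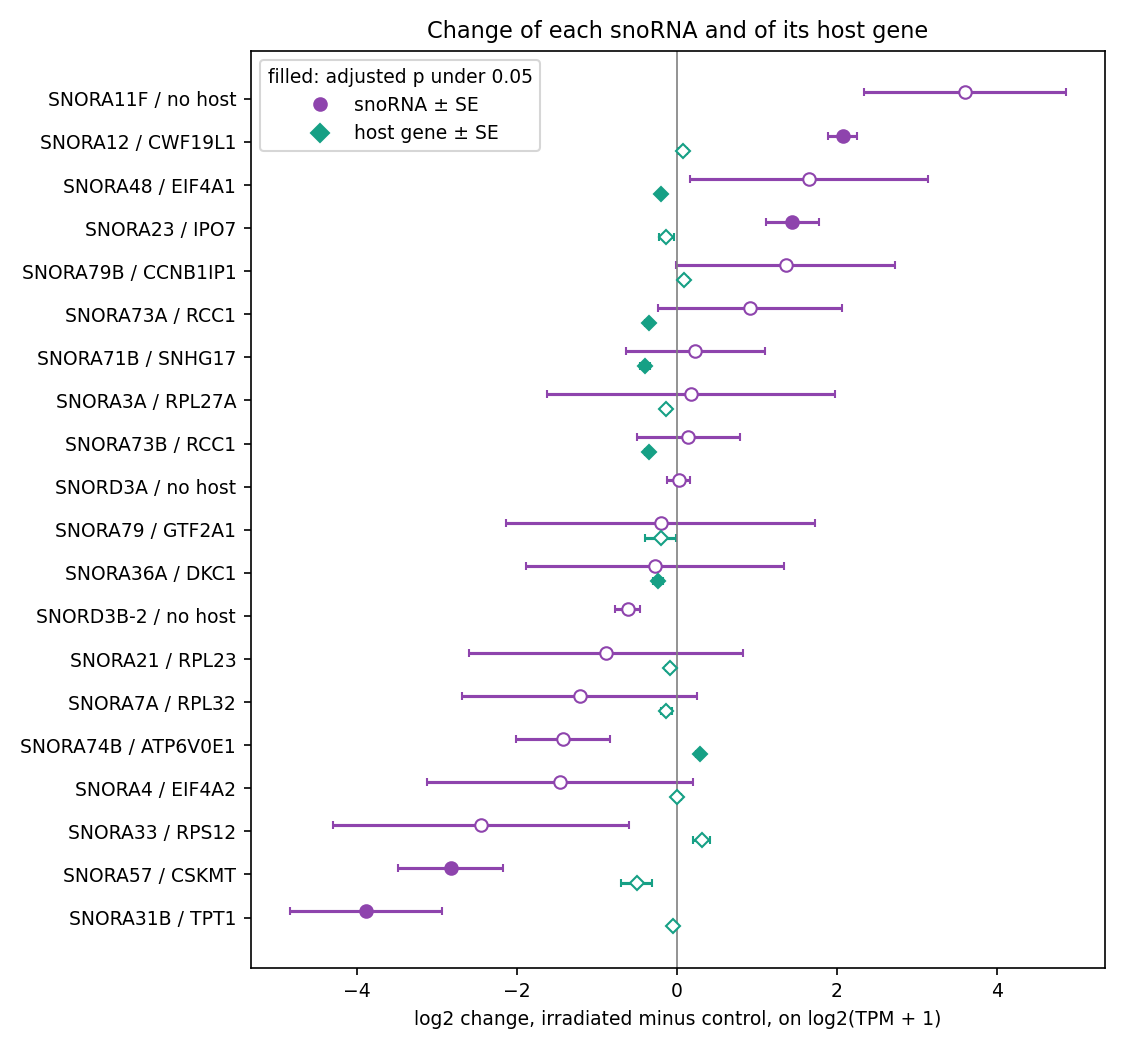
log2 change, irradiated minus control (x axis), of each snoRNA (purple circles) and of its main host gene (green diamonds), with SE from limma as bars; rows are ordered by the snoRNA's change and filled symbols have an adjusted p under 0.05. Host symbols lie between -0.50 and 0.31, whereas the snoRNA symbols run from -3.89 to 3.60 with wide bars.

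Of 5 genes of C/D snoRNP proteins, 4 fell and none rose, against 4.07% of all genes tested called lower and 6.53% called higher, and their median log2 change was -0.27. NOP58, a core scaffold protein of the C/D particle, fell to 77.8 ± 1.21 TPM in irradiated cells, against 97.3 ± 1.15 TPM in controls (log2 change -0.32 ± 0.04 SE, limma, adjusted p = 0.00718). Its partner NOP56 fell to 276 ± 6.16 TPM, against 328.5 ± 1.56 TPM in controls (adjusted p = 0.00921). FBL, the gene of the methyltransferase fibrillarin, fell to 548 ± 26.3 TPM, against 662 ± 12.5 TPM in controls (adjusted p = 0.0146). RRP9, a U3-specific protein gene, fell to 45.9 ± 1.43 TPM, against 56.7 ± 4.11 TPM in controls (adjusted p = 0.0326). SNU13, which binds the kink-turn of C/D RNAs, did not pass, at 303 ± 11.9 TPM in irradiated cells and 291 ± 2.21 TPM in controls (adjusted p = 0.394). NOP58 passed in all 16 other fits that tested it, whereas the calls of NOP56, FBL and RRP9 were lost in 1, 5 and 8 of 16. The number of C/D proteins called was 1 in eBayes without a trend, 2 without control replicate 2 and 3 without any other single library.

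Of 4 H/ACA snoRNP proteins, DKC1 fell and none rose. GAR1 had 27.5 ± 1.15 TPM in irradiated cells and 31.9 ± 3.30 TPM in controls (limma, adjusted p = 0.165), NHP2 493 ± 17.7 and 516 ± 31.8 TPM (adjusted p = 0.481), and NOP10 500.1 ± 23.7 and 445 ± 27.8 TPM (adjusted p = 0.105). The DKC1 call was lost in 8 of 16 other fits, among them 5 of the 6 that left out a library. Of 16 assembly and transport factors, NOLC1, a nucleolar phosphoprotein that binds snoRNPs, fell (142 ± 12.2 TPM in irradiated cells and 182 ± 4.28 TPM in controls, adjusted p = 0.0198) and none rose. Of 13 processing and decay genes, the exosome subunit gene EXOSC3 fell (59.4 ± 6.95 and 76.7 ± 3.70 TPM, adjusted p = 0.0423) and none rose. These last 3 lists held 1 called gene each, and the calls of NOLC1 and EXOSC3 were lost in 5 and 10 of 16 other fits. In lists of 16 and 13 genes, 1 call is 6.25% and 7.69%, close to the 4.07% of all genes tested that were called lower. The median log2 changes of these 3 lists were -0.13, -0.20 and -0.11, against 0.03 over all genes tested.

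Across settings, 1 of the 4 snoRNA calls stood in every fit. The number of members called was 1 in the fit on short rows. Leaving out irradiated replicate 2 or 3 or control replicate 2 also left 1, and leaving out control replicate 1 or 3 left 2. Without irradiated replicate 1 the number was 3. It was 4 in the fit without mitochondrially encoded genes and 5 after median-ratio scaling or quantile normalization.

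**Figure D5:**
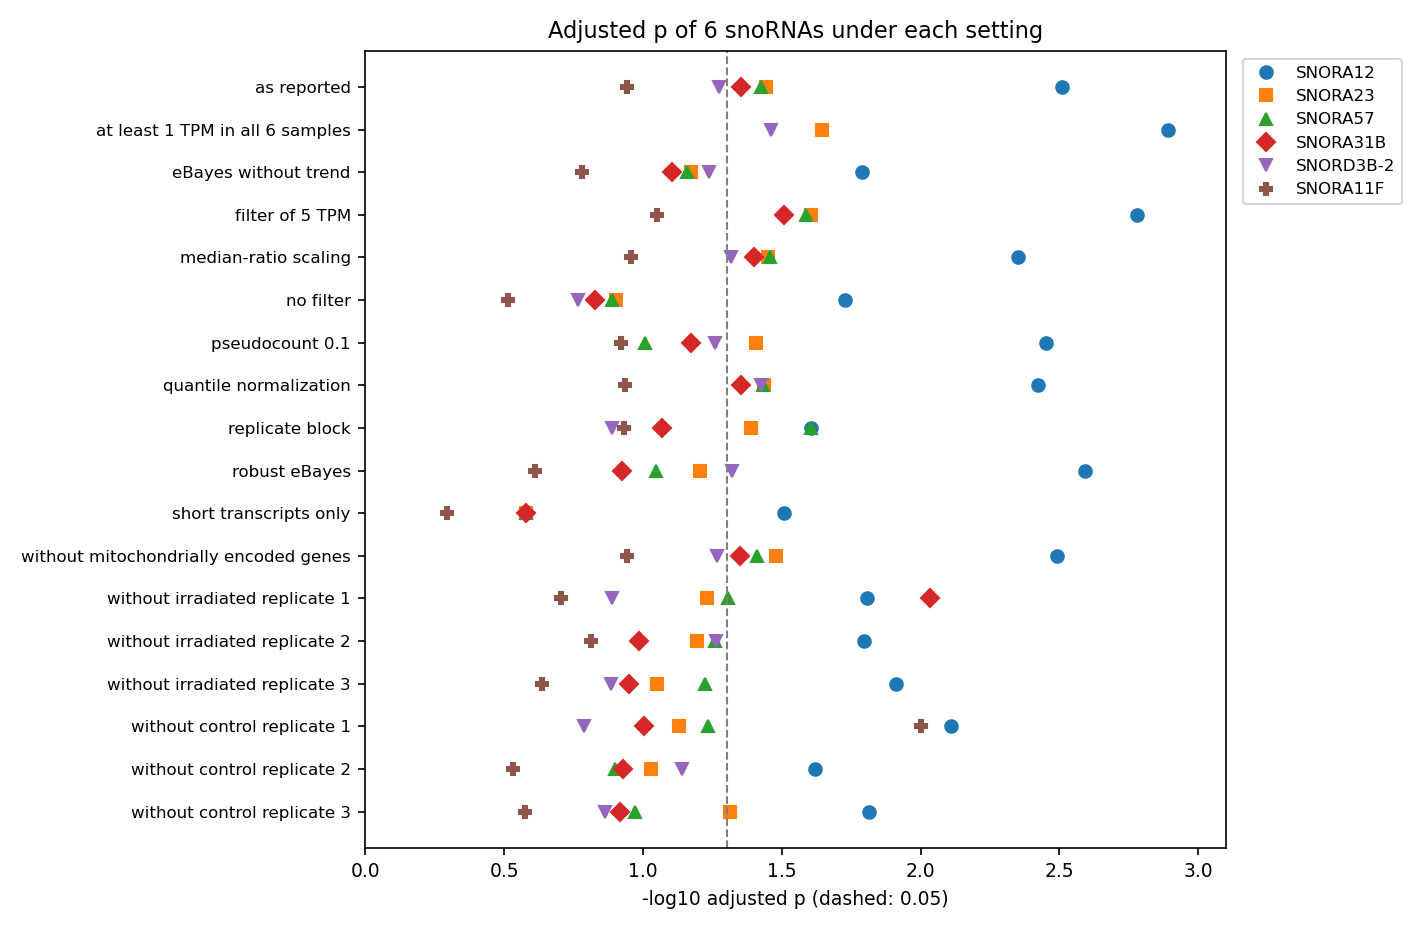
-log10 of the limma adjusted p (x axis; the dashed line is 0.05, called to its right) of 6 snoRNAs under the reported fit and 17 other settings (rows). SNORA12 lies to the right of the line in every row, the other 5 cross it, and a symbol is missing where a filter removed the RNA.

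The libraries carried the transcripts of the labelled line, with VIM at 1583 to 1599 TPM in irradiated and 1936 to 2011 TPM in control libraries and CD44, AXL and CAV1 all above 100 TPM, and with PGR listed at 0 and ESR1 and CDH1 at or below 0.4 TPM in all 6. ERBB2 was at 20.9 to 27.9 TPM. The endothelial marker PECAM1 stood between 0.87 and 1.5 TPM and the liver marker ALB between 0.04 and 1.75 TPM. The leukocyte marker PTPRC stood at 40.4 TPM in irradiated replicate 1 and at 0.11 to 0.45 TPM in the other 5 libraries. Without that library, SNORA12, SNORA57 and SNORA31B still passed (limma, adjusted p = 0.0155, 0.0496 and 0.00922). SNORA23 did not pass in that fit (limma, adjusted p = 0.0587). Between 14592 and 14889 genes reached 1 TPM in irradiated libraries and between 14248 and 14417 in controls.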

How the data were processed

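Total RNA was made into libraries with a TruSeq kit, per the labels' protocols, which state no RNA selection or strand. The submitters' processing notes name hg38, HISAT2, StringTie and RSEM, without versions or roles. The authors deposited TPM values per gene, which are divided by transcript length and by the library total. In a short RNA few reads therefore give a large TPM, and depth cannot be recovered, and precision rests on the replicate spread.

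Groups came from sample titles. Rows at 1 TPM or more in 3 or more of 6 samples were transformed to log2(TPM + 1) and compared with limma 3.58.1 in R 4.3.3 (eBayes with trend, 3.39 prior and 4 residual degrees of freedom). Tests were two-sided, p-values were adjusted by Benjamini-Hochberg across the 14621 rows, and the threshold was 0.05. Single ratios were compared by exact permutation over 20 assignments. Positions, lengths, hosts and sequences came from GENCODE 29 by gene identifier, and 97.5% of tested rows matched; identity was read from global alignments (Biopython 1.88). The procedure was tested on simulated data. Described were all 20 members and hosts that were called or carried a called member (and SNHG3). Up to 4 called genes of each of 4 lists (38 genes) were also described. Uncalled H/ACA and C/D proteins, markers, neighbouring snoRNA rows and the genes of spliceosomal RNAs were named after their values were seen. The members and lists were chosen with earlier results of these data known.

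Alternatives were a pseudocount of 0.1, 3 other filters, 2 normalizations, 2 other variance priors, a fit on rows under 300 bases, removal of mitochondrially encoded genes, each library left out and the replicate number as a block. Same-numbered samples had deviations from their group means with correlations of 0.03, -0.06 and -0.03 (replicates 1, 2 and 3), and the main comparison left them unpaired.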

Additional observations from a re-analysis of the deposited data

How the results depend on the processing

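The count of all genes called, 1550 as reported, was 993 in eBayes without trend, 497 with no filter, 3 of 163 rows in the fit on short transcripts only, and between 306 and 1390 with 1 library left out. The count of snoRNAs called, 4 as reported and all H/ACA, was 1 (H/ACA) in eBayes without trend, with no filter and on short transcripts only, and 2 (both H/ACA) with a pseudocount of 0.1. It was 2 with robust eBayes, of which 1 was H/ACA and 1 C/D, and between 1 and 3 with 1 library left out, all H/ACA. With at least 1 TPM in all 6 samples, 2 H/ACA RNAs and 1 C/D RNA were called. The count of C/D RNAs called, 0 as reported, was also 1 after median-ratio scaling and after quantile normalization. With the replicate block, 362 genes, 3 snoRNAs (SNORA31B lost its call) and 1 host gene were called; the block changed neither the SNORA12 nor the SNORA23 and SNORA57 calls.

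Of host genes, 5 were called as reported, 2 in eBayes without trend, 3 with no filter and between 1 and 5 with 1 library left out. The difference in summed TPM of the members, 25.2 TPM as reported, was -20.0 TPM without the most abundant row of each class and between 5.48 and 43.99 TPM with 1 library left out. The median residual SD of H/ACA members, 2.19 as reported, was 3.48 with a pseudocount of 0.1. Among uncalled members and SCARNA16, the direction turned for 1 or more left-out libraries: over these fits the log2 change ran from -2.03 to 1.52 for SNORA79, -0.33 to 2.48 for SNORA79B, -1.46 to 1.90 for SNORA3A, -1.82 to 1.14 for SNORA36A, -2.76 to 0.0441 for SNORA21, -0.38 to 0.80 for SNORA73B, -2.35 to 0.45 for SNORA7A, -0.53 to 1.05 for SNORA71B, -0.0861 to 0.0922 for SNORD3A and -1.57 to 0.0051 for SCARNA16. SNORD3A was also at -0.0138 after median-ratio scaling and -0.11 after quantile normalization, against 0.02 as reported. The causes of these differences were not tested. Fits with 1 library left out and the block have fewer residual degrees of freedom, and the short fit takes its expected spread from 163 rows.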

Other observations

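The small Cajal body RNAs (scaRNAs), which guide modification of spliceosomal RNAs with the same 2 classes of particle, were listed at 0 in 14.8% of their values, against 29.6% for the H/ACA members. Of 9 tested, none was called by limma and 1 had an unadjusted p under 0.05, and no scaRNA had groups without overlap. Their median log2 change was 0.02 and their median residual SD 1.23, against 2.19 for the H/ACA members, a difference that was not tested. SCARNA16 had 6.40, 42.5 and 64.4 TPM in irradiated replicates 1, 2 and 3, against 50.6, 38.3 and 73.0 TPM in control replicates 1, 2 and 3 (log2 change -0.94 ± 0.74 SE, limma, adjusted p = 0.447). SCARNA18 had 34.0, 81.1 and 35.4 TPM in irradiated libraries, against 109, 17.3 and 0 TPM in controls (log2 change 1.90 ± 1.48 SE, limma, adjusted p = 0.448), and its change was 0.0689 without control replicate 3 and 3.46 without control replicate 1. Both overlapped between groups.

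The snoRNA rows below the level gave a different sum from the members. H/ACA rows that did not reach 1 TPM in 3 libraries summed to 109, 68.5 and 175 TPM in irradiated libraries, against 222, 187.5 and 285 TPM in controls, without overlap between the groups. The number of such rows above 0 was 3, 6 and 10 in irradiated libraries and 5, 10 and 15 in controls, and these numbers overlapped. SNORA26 alone held 104 TPM of the sum in irradiated replicate 1 and 129 TPM of that in control replicate 1. The highest irradiated sum, 175 TPM, was close to the lowest control sum, 187.5 TPM. C/D rows below the level summed to 45.8, 46.8 and 20.5 TPM in irradiated libraries, against 21.6, 61.5 and 0 TPM in controls. These sums were looked at after the members had been described and were not tested.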
